A study of Homo sapiens with 12 samples.

Results

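The genes described here are 34 direct transcriptional targets of p53, listed by symbol from general knowledge of the pathway. The list and the roles used to group it were set with earlier results of these data known. Each symbol matched 1 row of a table of 56227 rows that gave TPM (a length-scaled relative abundance of transcripts) in 12 RNA-seq libraries of HT1080 cells. HT1080 is an established human fibrosarcoma line that carries an NRAS Q61K allele. The 4 groups of 3 libraries were siRNA against the mutant allele (siQ61K) with poly(dA:dT), siQ61K with DMSO, control siRNA (siNC) with poly(dA:dT), and siNC with DMSO. Poly(dA:dT) is a synthetic double-stranded DNA used to trigger cytosolic DNA sensing, and DMSO is the solvent given to the other libraries. siQ61K was the only NRAS siRNA, no dose or time is given in the labels, and no control for the delivery of poly(dA:dT) is named. The labels do not state that replicate libraries are separate cultures. The p-values thus reflect library-to-library spread, which could be technical.

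p53 is a transcription factor that damage, oncogene and other stress signals stabilise, mainly by releasing it from the ubiquitin ligase MDM2. It binds response elements in or near its targets and raises their transcription. The products arrest the cell cycle, repair DNA, alter metabolism or promote cell death, and some of them, MDM2 among them, feed back on p53. Several of these genes, GADD45B, PLK2 and GDF15 among them, are also known to respond to other stress and growth factor pathways.

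The p53 response element consists of a pair of decamer half-sites, each with a central C and G. It was searched for in the RefSeq promoters (GRCh38.p14), which span 250 bases before to 50 after each start, with both half-sites' C and G kept and 0 or 1 base between the half-sites. The element is its own reverse complement, so 1 search covers both strands. RefSeq promoters were matched for 26 of the 34 genes, by 41 promoters. The genes not matched were TP53INP1, GADD45A, TNFRSF10A, TNFRSF10B, PHLDA3, RRM2B, ASCC3 and CMBL. A match with at most 2 mismatches was found in 5 of the 41 promoters, from 4 genes, and in 0.533% of all 35116 promoters. With at most 3 mismatches the counts were 9 of 41 promoters, from 8 genes, against 2.38% of all promoters.

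The best match of each of the 8 genes is printed 5′ to 3′ on the gene's strand, to show which targets carry a recognisable element close to a start. The match is in capitals, and introns, exons and UTRs are those of the GENCODE annotation. DDB2 had no mismatch, at chr11:47214975-47215004 on the + strand, in the 5′ UTR. MDM2 (chr12:68808918-68808947, +, intronic), FAS (chr10:88991304-88991333, +, in an exon) and AEN (chr15:88621301-88621330, +, in a UTR) had 2 mismatches each. SESN1 (chr6:109009013-109009042, -, intronic), FDXR (chr17:74872991-74873020, -, in a UTR), RPS27L (chr15:63157522-63157551, -, in a UTR) and GDF15 (chr19:18386178-18386207, +, across UTR and coding sequence) had 3 each. A match describes letters only; binding in these cells was not measured.
DDB2: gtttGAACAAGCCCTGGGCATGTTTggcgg
MDM2: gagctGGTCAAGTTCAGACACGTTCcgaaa
FAS: ctcctGGACAAGCCCTGACAAGCCAagcca
AEN: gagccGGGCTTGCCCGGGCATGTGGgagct
SESN1: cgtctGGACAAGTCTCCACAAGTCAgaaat
FDXR: ggcccGGGCAGGAGCGGGCTTGCCCtgcgg
RPS27L: aggagGGCCTAGAGCAGACAAGCCCgcccc
GDF15: acctgcacAGCCATGCCCGGGCAAGAACtc

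Of the 34 genes, 33 were above 0 in all 12 libraries, and 32 passed the filter of at least 1 TPM in at least 3 libraries. TNFRSF10A, a receptor for the death ligand TRAIL, was listed at 0 throughout. SPATA18, a mitochondrial quality control protein, lay between 0.0482 and 0.817 TPM. The mean over all libraries was at least 100 TPM for 7 genes, from 10 to 100 TPM for 20, and under 10 TPM for 5 of those tested. GDF15, a secreted stress cytokine, was the most abundant, at 659.4 to 2826 TPM. It was followed by RPS27L, a paralog of ribosomal protein S27, at 412.5 to 890.1 TPM, so the ranges of the leading pair overlapped over the 12 libraries. CCNG1 (cyclin G1) had a mean of 297.5 TPM, PLK2 (a polo-like kinase) 236.6 TPM, TNFRSF10B (the other TRAIL death receptor of the list) 197.5 TPM, MDM2 105.2 TPM and GADD45A (a growth arrest protein) 100.9 TPM. The ranges of MDM2, GADD45A, DDB2 and CMBL overlapped, so their order is not resolved. At the low end stood the p53 phosphatase PPM1D (8.11 TPM), the receptor EDA2R (8.08 TPM), the lysosomal fucosidase FUCA1 (6.42 TPM) and the membrane protein SUSD6 (5.36 TPM). As TPM is per length, these levels can be set beside each other between genes, within limits. Levels are less certain for genes that share sequence with others, such as PTP4A1, where 88.4% of 31-base words of the longest transcript do. The order also depends on the group, as CCNG1 averaged 215.2 TPM and PLK2 281.2 TPM in siQ61K DMSO.

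**Figure D1:**
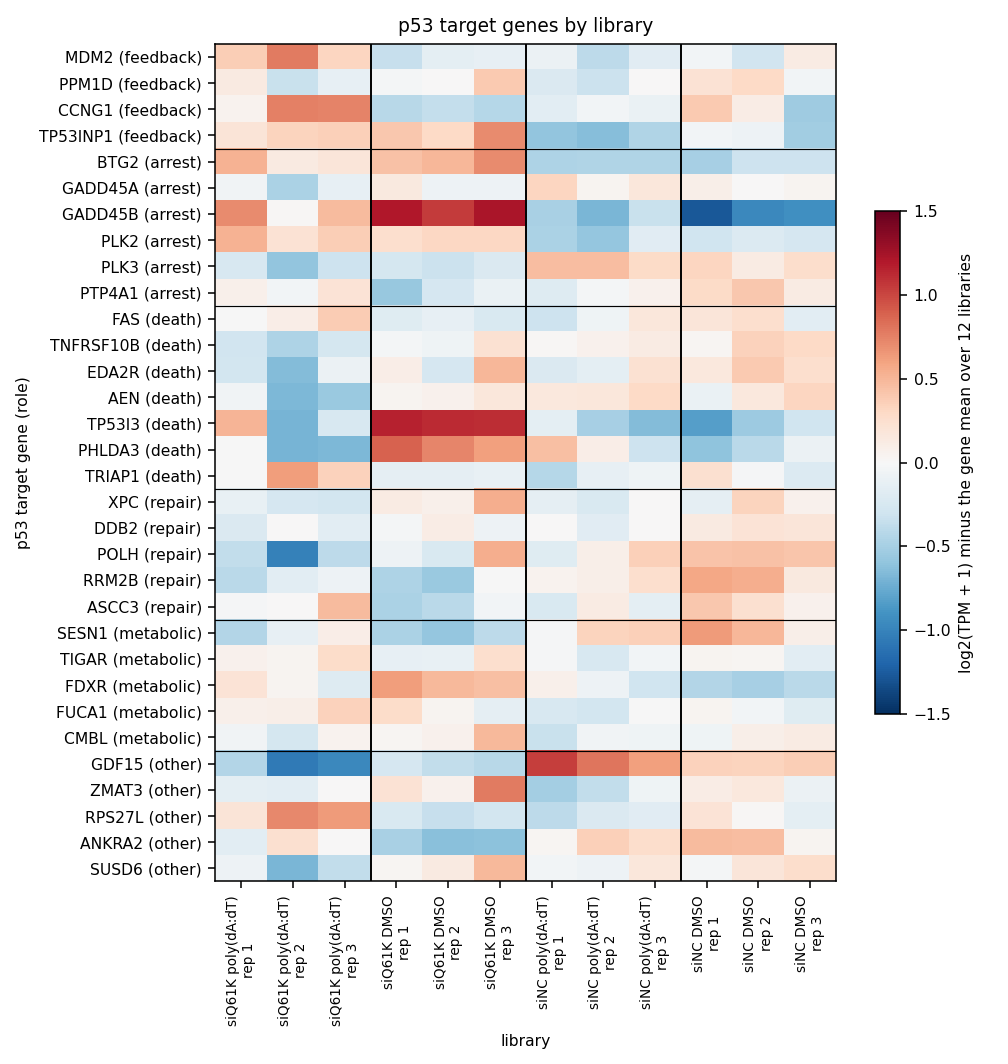
Level of the 32 tested p53 target genes in each library, as the deviation of log2(TPM + 1) from the gene's mean over the 12 libraries. Columns are libraries in 4 groups of 3 and rows are genes by role. GADD45B, at 59.4 to 67.5 TPM in siQ61K DMSO and 11.1 to 14.5 TPM in siNC DMSO, shows the widest contrast.

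Replicate libraries correlated at 0.966 to 0.984 across genes, and sequencing depth cannot be read from TPM. NRAS was lower in each siQ61K library (15.2 to 23.5 TPM over 6 libraries) than in each siNC library (41.4 to 60.6 TPM). A TPM per gene does not separate the alleles. The summed TPM of 6 markers of mesenchymal cells was 6714 to 11660 over the 12 libraries. The markers were uneven, with VIM at 4728 to 7742 TPM and S100A4 at 11.05 to 30.53 TPM. The summed TPM of 9 markers of other cell types was at most 1.36. A gene's deviation in a library followed its GC content, with a Spearman correlation across genes of 0.29 to 0.52 in the siQ61K DMSO libraries, -0.44 to 0.09 in the siQ61K poly(dA:dT) libraries, -0.13 to 0.27 in the siNC poly(dA:dT) libraries and -0.49 to -0.03 in the siNC DMSO libraries. The GC trend therefore moves with the groups, and counts of called genes are given as deposited and after correcting every library for the GC content and length of transcripts. siQ61K DMSO replicate 3 had 14257 genes at 1 TPM or more, against 13402 to 13776 in the other libraries. It and replicate 2 of siQ61K with poly(dA:dT) were set aside in earlier work on these values, and counts without this pair are given beside the results they change.

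Knockdown without poly(dA:dT) asked how siQ61K changed these genes on its own. It moved them in both directions: 7 of 32 were higher and 7 lower in siQ61K DMSO than in siNC DMSO libraries, by limma with an adjusted p under 0.05 over 14722 genes. The higher genes were GADD45B, TP53I3, PHLDA3, FDXR, BTG2, TP53INP1 and PLK2, and the lower genes were ANKRA2, SESN1, RRM2B, GDF15, PTP4A1, ASCC3 and PLK3. Of all genes tested, 31.5% were called, 16.6% higher and 14.8% lower, against 43.8% of the p53 targets, 21.9% each way. The values of the groups did not overlap for 7 targets that were higher and 9 that were lower, against 25.4% and 20.4% of all genes. The median log2 fold change was -0.09 over the 32 targets and 0.01 over all genes. In bulk RNA, fewer cells expressing a gene and less RNA per cell cannot be told apart.

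The growth arrest genes held the largest single difference. GADD45B, a stress-induced growth arrest protein, had 66.1, 59.4 and 67.5 TPM in siQ61K DMSO libraries, against 11.1, 13.9 and 14.5 TPM in siNC DMSO libraries. The groups did not overlap, and the log2 fold change was 2.21 (SE 0.17, limma adjusted p = 4.47e-06). All fold changes here are on the log2(TPM + 1) scale, which understates the change of low genes. BTG2, an anti-proliferative cofactor of mRNA deadenylation, had 32.0, 33.2 and 38.5 TPM in siQ61K DMSO, against 16.2, 18.6 and 18.5 TPM in siNC DMSO (log2 fold change 0.92, adjusted p = 0.000308). PLK2 stood at 273.4, 286.1 and 284.3 TPM in siQ61K DMSO and at 186.1, 199.2 and 193.3 TPM in siNC DMSO (0.54, adjusted p = 0.00325). Both genes were higher in every knockdown library. PLK3, the related polo-like kinase, moved the other way, with 31.2, 29.8 and 32.1 TPM in siQ61K DMSO against 47.4, 41.0 and 45.4 TPM in siNC DMSO (-0.51, adjusted p = 0.00664). GADD45A, the closest relative of GADD45B in the list, averaged 100.3 ± 9.39 TPM in siQ61K DMSO and 103.2 ± 3.19 TPM in siNC DMSO (SD, n = 3 each), with overlapping values and no call.

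Of the 7 death genes tested, TP53I3 and PHLDA3 were called higher and none was called lower as deposited, beside the 16.6% and 14.8% of all genes given above. On the corrected scale TNFRSF10B was called lower. Counts over 7 genes are too few to set this role apart from the shares of all genes. TP53I3 (PIG3), a quinone oxidoreductase linked to oxidative stress, had 69.2, 67.8 and 67.2 TPM in siQ61K DMSO libraries, against 16.8, 20.7 and 24.6 TPM in siNC DMSO libraries. Its log2 fold change was 1.69 (SE 0.25, adjusted p = 0.000358). PHLDA3, an inhibitor of the survival kinase AKT, had 156.2, 140.8 and 130.0 TPM in siQ61K DMSO, against 55.0, 63.1 and 79.4 TPM in siNC DMSO (1.11, adjusted p = 0.00207). For both, the groups were separate. The death receptors were not called and their values overlapped. FAS averaged 15.0 ± 0.611 TPM in siQ61K DMSO and 18.4 ± 2.83 TPM in siNC DMSO, and TNFRSF10B averaged 202.0 ± 23.1 TPM in siQ61K DMSO and 229.2 ± 26.2 TPM in siNC DMSO (SD, n = 3 each).

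In the feedback group, TP53INP1, a nuclear stress protein, was called: it had 12.7, 11.7 and 15.9 TPM in siQ61K DMSO and 9.02, 8.73 and 6.14 TPM in siNC DMSO (log2 fold change 0.69, adjusted p = 0.00795). MDM2 was not called, at 80.5, 92.5 and 93.5 TPM in siQ61K DMSO against 99.8, 83.9 and 111.4 TPM in siNC DMSO (-0.14, adjusted p = 0.494). Nor were PPM1D (-0.04) or CCNG1 (-0.39). MDM2 and PPM1D restrain p53, and their siQ61K and siNC values overlapped.

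Of the 5 repair genes, 0 were called higher and 2 lower, beside 16.6% and 14.8% of all genes. Counts over 5 genes are too few to set a role apart from these shares. RRM2B, the p53-induced subunit of ribonucleotide reductase, had 30.7, 28.8 and 42.4 TPM in siQ61K DMSO, against 64.3, 62.5 and 47.3 TPM in siNC DMSO, with a log2 fold change of -0.76 (adjusted p = 0.00381). ASCC3, a helicase subunit, averaged 34.6 ± 6.05 TPM in siQ61K DMSO and 50.4 ± 6.02 TPM in siNC DMSO (SD, n = 3 each; -0.54, adjusted p = 0.026). That call ended when either of siQ61K DMSO replicates 1 and 2 or of siNC DMSO replicates 1 and 2 was left out. The DNA damage sensors XPC and DDB2 and the translesion polymerase POLH were not called. For DDB2 the values were lower without overlap, at 99.6 ± 7.06 TPM in siQ61K DMSO and 112.2 ± 2.58 TPM in siNC DMSO. Its log2 fold change was -0.17 (limma adjusted p = 0.205), and -0.31 after GC and length correction (adjusted p = 0.0565).

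The metabolic genes split. FDXR, a mitochondrial ferredoxin reductase, had 118.5, 106.9 and 104.5 TPM in siQ61K DMSO against 56.0, 53.8 and 57.3 TPM in siNC DMSO (log2 fold change 0.97, adjusted p = 0.000157). SESN1, a sestrin that restrains mTORC1, had 21.5, 19.8 and 22.8 TPM in siQ61K DMSO against 47.6, 43.1 and 32.2 TPM in siNC DMSO (-0.89, adjusted p = 0.00223). FDXR was thus higher, and SESN1 lower, in every knockdown library. TIGAR, FUCA1 and CMBL were not called.

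Of the remaining genes, GDF15 had 1152, 1068 and 1032 TPM in siQ61K DMSO, against 1755, 1738 and 1776 TPM in siNC DMSO, and was lower (-0.70, adjusted p = 0.00356). ANKRA2, an ankyrin repeat protein, had 15.5, 13.9 and 14.0 TPM in siQ61K DMSO and 31.1, 30.8 and 22.8 TPM in siNC DMSO (-0.91, adjusted p = 0.000941). Both were lower in every siQ61K DMSO library than in every siNC DMSO library. PTP4A1, a tyrosine phosphatase of the arrest list, averaged 49.0 ± 7.90 TPM in siQ61K DMSO and 73.2 ± 7.21 TPM in siNC DMSO (-0.58, adjusted p = 0.00612), and 88.4% of the 31-base words of its longest transcript also occur in another annotated gene, so its value is uncertain. With GC content and length corrected, 12 of the 14 calls remained in the same direction, while PTP4A1 (adjusted p = 0.17) and ASCC3 (adjusted p = 0.113) were lost. ZMAT3, an RNA-binding p53 target, was called higher (corrected log2 fold change 0.53) and TNFRSF10B lower (-0.25) on the corrected scale and not as deposited. There 8 of the 32 genes were higher and 6 lower, and of all genes 27.6% were called, 13.1% higher and 14.5% lower.

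**Figure D2:**
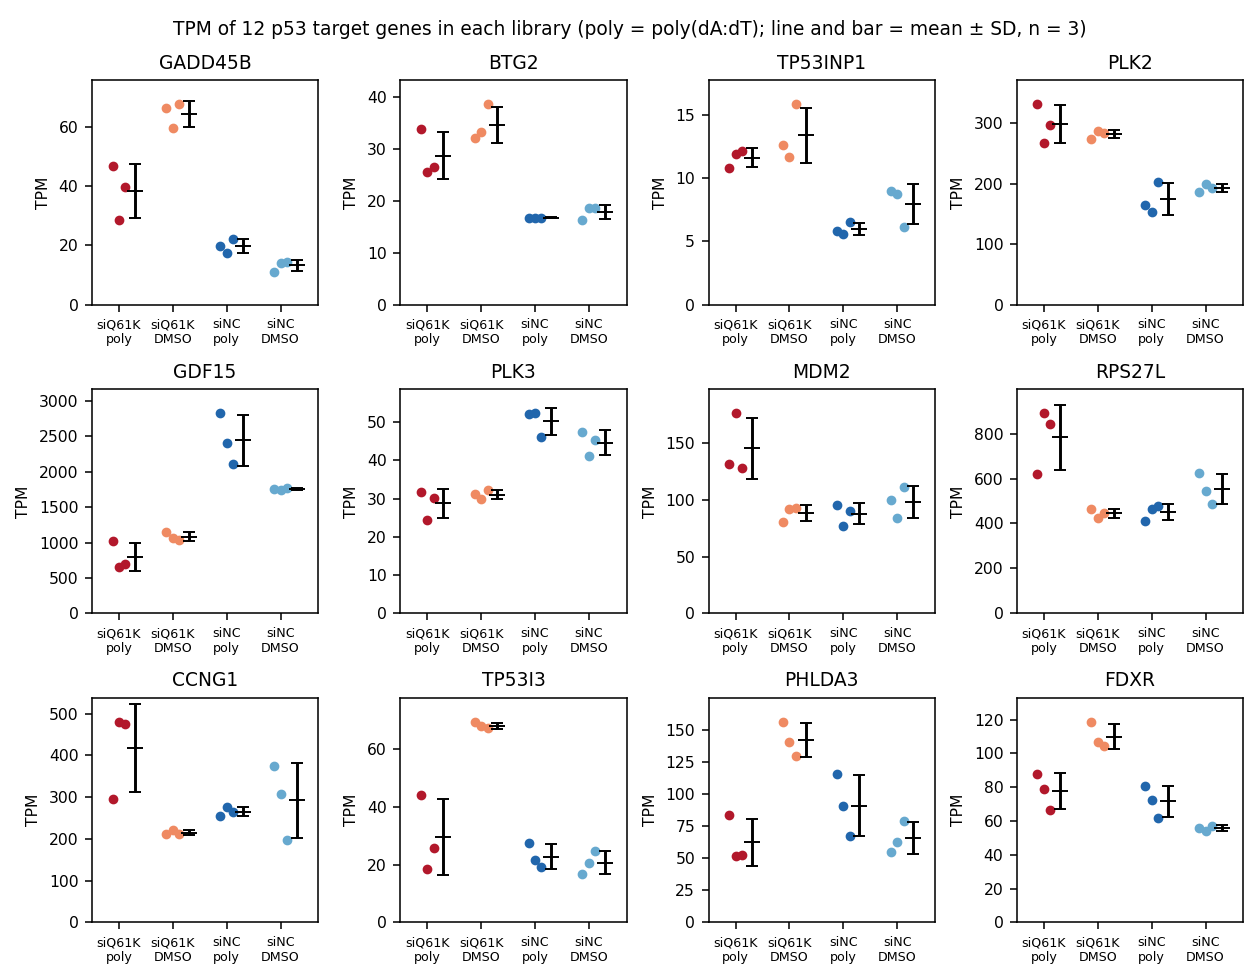
TPM per library of selected p53 target genes, 3 points for each of the 4 groups, siQ61K left of siNC and poly(dA:dT) left of DMSO, with a line and bar for the mean ± SD; axes are linear and start at 0. GDF15 reached 2826 TPM in siNC poly(dA:dT) and stayed at or below 1152 TPM in the siQ61K libraries.

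Knockdown in the presence of poly(dA:dT) compared 6 other libraries, so it shares none with the comparison above. Here 7 of 32 genes were higher (GADD45B, TP53INP1, PLK2, RPS27L, BTG2, MDM2 and TRIAP1) and 6 were lower (GDF15, PLK3, POLH, AEN, TNFRSF10B and GADD45A) in siQ61K than in siNC libraries. Of all genes, 21.4% were called, 8.71% higher and 12.6% lower, against 40.6% of the p53 targets. Values did not overlap between the groups for 10 targets that were higher and 8 that were lower, against 15.6% and 21% of all genes. Their median log2 fold change was 0.10, and that of all genes was -0.07.

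MDM2 was called in this comparison, with 131.9, 176.7 and 128.5 TPM in siQ61K poly(dA:dT) libraries, against 95.8, 77.6 and 90.5 TPM in siNC poly(dA:dT) libraries. The log2 fold change was 0.71 (SE 0.14, limma adjusted p = 0.00393), the groups did not overlap, and the call held whichever library was left out. Of the 31-base words of MDM2's longest transcript, 21.4% occur in other annotated genes, which makes its values less certain. TP53INP1 had 10.8, 11.9 and 12.2 TPM in siQ61K poly(dA:dT), against 5.83, 5.62 and 6.52 TPM in siNC poly(dA:dT) (0.85, adjusted p = 0.00327). MDM2 and TP53INP1 were the feedback genes called higher as deposited, 2 of 4, where 8.71% of all genes were called higher. CCNG1 joined them on the corrected scale, where 13.8% were. PPM1D was not called (0.07, corrected 0.09). Counts over 4 genes are too few to set this role apart from the shares of all genes. CCNG1 averaged 416.8 ± 105.5 TPM in siQ61K poly(dA:dT) and 265.5 ± 11.6 TPM in siNC poly(dA:dT), just short of the threshold (0.61, adjusted p = 0.0552).

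The arrest genes again went both ways. GADD45B had 46.7, 28.6 and 39.7 TPM in siQ61K poly(dA:dT), against 19.9, 17.2 and 22.2 TPM in siNC poly(dA:dT) (log2 fold change 0.90, adjusted p = 0.00267). BTG2 averaged 28.6 ± 4.49 TPM in siQ61K poly(dA:dT) and 16.7 ± 0.0898 TPM in siNC poly(dA:dT) (0.73, adjusted p = 0.00188). PLK2 averaged 298.5 ± 31.8 TPM in siQ61K poly(dA:dT) and 173.7 ± 26.3 TPM in siNC poly(dA:dT) (0.78, adjusted p = 0.000385). Against these, PLK3 had 31.7, 24.5 and 30.1 TPM in siQ61K poly(dA:dT) and 52.2, 52.3 and 46.0 TPM in siNC poly(dA:dT) (-0.79, adjusted p = 0.000592). GADD45A was lower by less (-0.39, adjusted p = 0.0404), and median-of-ratios scaling and quantile normalization both ended its call.

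GDF15 gave the largest decrease among the p53 targets. It had 1018, 659.4 and 704.9 TPM in siQ61K poly(dA:dT) libraries, against 2826, 2399 and 2114 TPM in siNC poly(dA:dT) libraries, with a fold change of -1.64 on the log2 scale (SE 0.15, adjusted p = 8.25e-06). RPS27L moved opposite to it, with 618.1, 890.1 and 841.1 TPM in siQ61K poly(dA:dT) and 412.5, 466.4 and 479.7 TPM in siNC poly(dA:dT) (0.77, adjusted p = 0.00147). Both genes carry a 3-mismatch element near their start, printed above. Of the genes with a printed match, MDM2 and RPS27L were called higher here as deposited, and GDF15 and AEN lower. DDB2, FAS, SESN1 and FDXR were not called, and any part of the element in these changes was not tested. Of the death genes, TRIAP1, which favours survival, was higher (0.53, adjusted p = 0.0334), while the nuclease AEN (-0.64, adjusted p = 0.0117) and TNFRSF10B (-0.41, adjusted p = 0.0207) were lower. Of the 5 repair genes POLH alone was called (-0.68, adjusted p = 0.0464), and none of the 5 metabolic genes was called (1 at an unadjusted p under 0.05). Of all genes, 21.4% were called, and 5 genes are too few to set a role apart from that share.

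All 13 calls remained in the same direction after GC and length correction, which added CCNG1, FDXR and ZMAT3 as higher and RRM2B and SESN1 as lower, so that 10 were higher and 8 lower. Of all genes, 27.1% were called on that scale, 13.8% higher and 13.3% lower. Without siQ61K poly(dA:dT) replicate 2, 8 of the 32 genes were called in place of 13, and 8 without the pair set aside. The shares of all genes for these fits are not given here. The 8 genes whose calls held whichever library was left out were MDM2, TP53INP1, BTG2, GADD45B, PLK2, RPS27L, PLK3 and GDF15. In both knockdown comparisons, which have separate libraries but the same siRNA, BTG2, GADD45B, PLK2 and TP53INP1 were called higher and GDF15 and PLK3 lower, 6 of the 14 and 6 of the 13 called genes. None was called in opposite directions. The same counts over all genes were not made, so these counts cannot be set apart from what all genes show. Both comparisons also share the estimate of each gene's spread, which came from a single model of all 12 libraries. Several genes called in only 1 of these comparisons had the opposite sign, without a call, in the other. Among them, without and with poly(dA:dT), were PHLDA3 (1.11 and -0.54), RPS27L (-0.31 and 0.77) and MDM2 (-0.14 and 0.71). The 6 shared calls also held under all 25 alternatives tried.

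**Figure D3:**
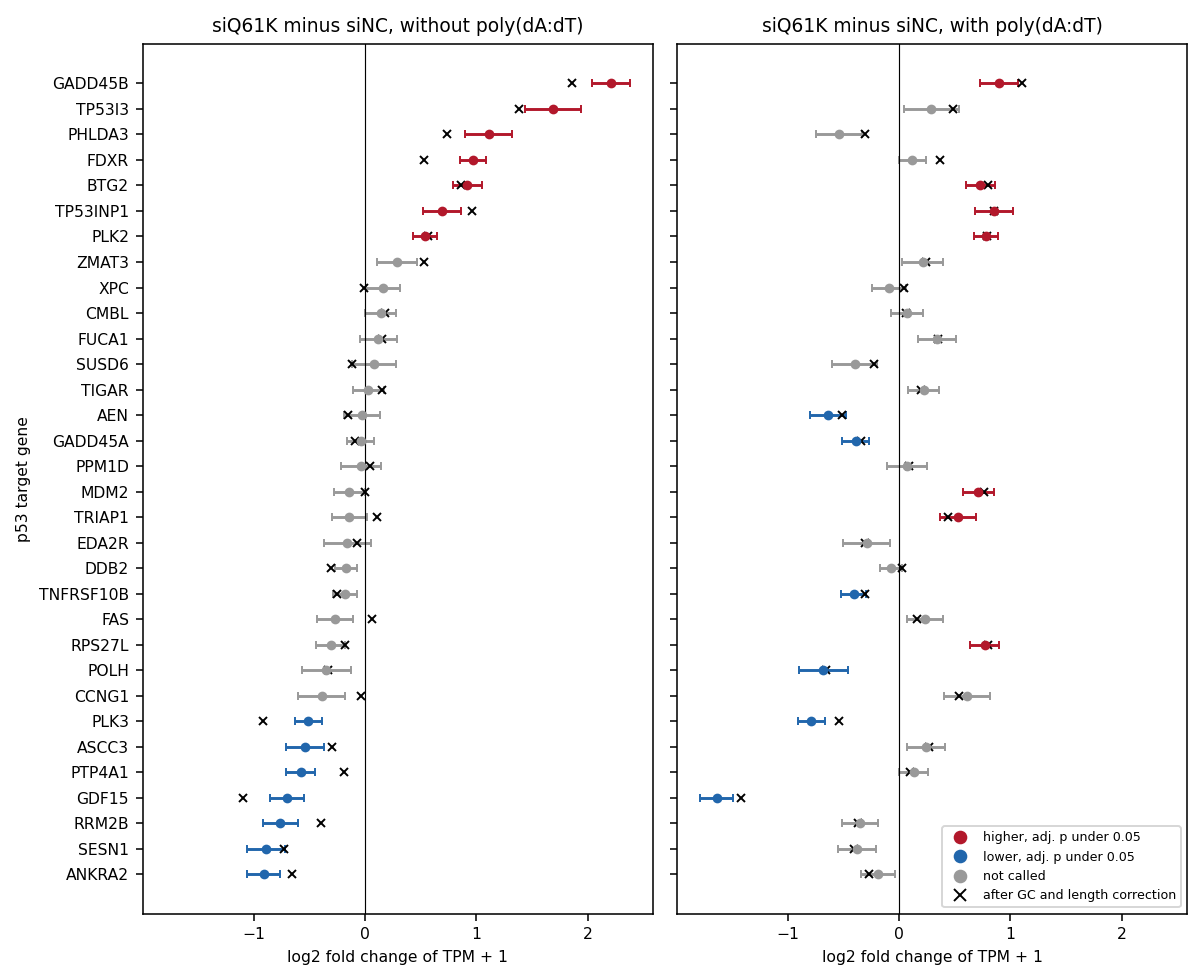
log2 fold change (siQ61K over siNC, with SE) of the 32 tested p53 target genes, ordered by the fold change without poly(dA:dT). Left panel without and right panel with poly(dA:dT), red and blue points past limma's adjusted p of 0.05, crosses after GC and length correction. GADD45B lies at 2.21 in the left panel and 0.90 in the right one, and GDF15 at -0.70 and -1.64.

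Poly(dA:dT) against DMSO under siQ61K shares its DMSO libraries with the first comparison and its poly(dA:dT) libraries with the second. With the deposited values, 5 of 32 genes were higher with poly(dA:dT) (CCNG1, RPS27L, MDM2, ANKRA2 and PTP4A1) and 10 were lower (TP53I3, PHLDA3, GADD45B, POLH, SUSD6, AEN, FDXR, GDF15, XPC and TNFRSF10B). Of all genes, 25.2% were called, 6.92% higher and 18.3% lower, against 15.6% and 31.2% of the targets. Values did not overlap for 8 targets that were higher and 11 that were lower, against 11.7% and 27.6% of all genes. The median of all genes was itself -0.15 on the log2 scale. Median-of-ratios scaling set that median to -0.01 and gave 8 of the p53 targets higher and 3 lower, and quantile normalization gave 8 higher and 5 lower. Among all called genes the share that was higher went with it, at 27.45% as deposited and 52.57% and 47.74% under these alternatives.

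CCNG1 had 295.0, 479.7 and 475.8 TPM with poly(dA:dT) and 212.5, 221.2 and 211.8 TPM with DMSO under siQ61K (log2 fold change 0.92, adjusted p = 0.00999). RPS27L had 462.3, 424.0 and 447.7 TPM in the DMSO libraries, all below its poly(dA:dT) values given above (0.80, adjusted p = 0.00388). MDM2 showed the same order (0.70, adjusted p = 0.00667). The feedback genes CCNG1 and MDM2 were thus called higher, while the feedback genes PPM1D (-0.23) and TP53INP1 (-0.18) were not called. On the lower side, TP53I3 had 44.1, 18.5 and 25.8 TPM with poly(dA:dT), against 67.2 to 69.2 TPM with DMSO (-1.27, adjusted p = 0.00582). PHLDA3 had 83.6, 51.4 and 52.5 TPM with poly(dA:dT), against 130.0 to 156.2 TPM with DMSO (-1.21, adjusted p = 0.00473). In both, poly(dA:dT) replicate 1 was the highest of its group and still below all DMSO libraries.

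After GC and length correction, where 8.74% of all genes were called (5.41% higher, 3.34% lower), 7 p53 targets passed, and 5 of them were among the 15: MDM2 (corrected log2 fold change 0.84), CCNG1 (0.67) and RPS27L (0.90) were higher, and TP53I3 (-0.92) and PHLDA3 (-0.76) lower. ASCC3 (0.51) and ZMAT3 (-0.40) passed only there. Over the 32 genes, Spearman's correlation of the fold change with GC content was -0.73 as deposited and -0.42 after correction. Over all genes it was -0.57 and -0.09. The higher genes that passed had 38.24% to 43.27% GC, and TP53I3 and PHLDA3 had 58.36% and 59.58%, while ZMAT3, also lower, had 39.46%. The part of base composition in the calls that passed was not tested further. GDF15, FDXR and GADD45B lost their calls, with corrected values of -0.11, -0.03 and -0.38. The count fell to 7 without siQ61K poly(dA:dT) replicate 2 or replicate 3 and to 8 without siQ61K DMSO replicate 1. The 6 calls that held whichever single library was left out were those of MDM2, CCNG1, RPS27L, TP53I3, PHLDA3 and GADD45B. Without the pair set aside, limma called 0 of the 32 genes (11 at an unadjusted p under 0.05). Shares of all genes for the fits with libraries left out are not given here, so these falls cannot be tied to the p53 targets.

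Under siNC, limma called 0 of the 32 genes between poly(dA:dT) and DMSO, with 5 at an unadjusted p under 0.05, and 0 after correction, with 2. Of all genes, 0.122% were called as deposited (0.0747% higher, 0.0475% lower) and 0.203% after correction (0.133% higher, 0.0699% lower). Values did not overlap for 3 targets that were higher and 4 that were lower with poly(dA:dT), against 7.89% and 10% of all genes. GDF15 had 2826, 2399 and 2114 TPM with poly(dA:dT) and 1755, 1738 and 1776 TPM with DMSO. The values did not overlap, but the call was missed (0.47, limma adjusted p = 0.323). GADD45B (0.55, adjusted p = 0.314) and FDXR (0.35, adjusted p = 0.37) were likewise separate between the groups but not called. DDB2, whose promoter holds the exact element printed above, averaged 95.7 ± 6.84 TPM with poly(dA:dT) and 112.2 ± 2.58 TPM with DMSO (-0.23, adjusted p = 0.424). It was 1 of the 4 targets that were lower without overlap. DDB2 was called in none of the 5 comparisons, as were FAS, CMBL, EDA2R, FUCA1, PPM1D, TIGAR and ZMAT3 on the deposited scale.

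The interaction, which subtracts the siNC response to poly(dA:dT) from the siQ61K response, tests whether those responses differed. It was higher for 6 of 32 genes (RPS27L, CCNG1, MDM2, ASCC3, ANKRA2 and PTP4A1) and lower for 5 (PHLDA3, TP53I3, GADD45B, GDF15 and FDXR), with 18.1% of all genes called, 6.0% higher and 12.1% lower. RPS27L had the largest positive difference (1.08, SE 0.19, adjusted p = 0.00771) and PHLDA3 the largest negative one (-1.65, SE 0.30, adjusted p = 0.00853). Under siNC, PHLDA3 had 115.4, 90.4 and 67.6 TPM with poly(dA:dT) and 55.0, 63.1 and 79.4 TPM with DMSO, so its siNC groups overlapped while its siQ61K groups did not. GDF15 had a difference of -0.94 (adjusted p = 0.0137) and MDM2 of 0.85 (adjusted p = 0.0179).

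Across the 32 genes, the interaction followed GC content. The 6 genes with a positive call had a GC content of 35.58% to 43.27%, and the 5 with a negative call had 58.36% to 62.92%. Spearman's correlation with GC content was -0.84 over these genes and -0.66 over 14299 genes. It is a description across genes of the same libraries. After correction it was -0.52 over the 32 genes and -0.04 over all. RPS27L (0.97, adjusted p = 0.0437) and PHLDA3 (-1.05, adjusted p = 0.0378) stayed past the threshold with the correction alone, 6.25% of the 32 genes, against 2.08% of all genes (1.41% higher, 0.671% lower). With a replicate block added to the correction the call of RPS27L ended and that of PHLDA3 was the 1 left. As to shared sequence, 14.2% of the 31-base words of RPS27L and 24.4% of those of PHLDA3 occur in other annotated genes, which makes both values less certain. The part of base composition in the other calls was not tested beyond this correction. The interaction count was 6 to 13 when single libraries were left out, and the shares of all genes for such fits are not given here. It was 6 without siQ61K poly(dA:dT) replicate 3, siNC poly(dA:dT) replicate 1 or siNC DMSO replicate 1, 7 without siQ61K DMSO replicate 1 or siNC DMSO replicate 2, and 5 without the pair set aside.

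**Figure D4:**
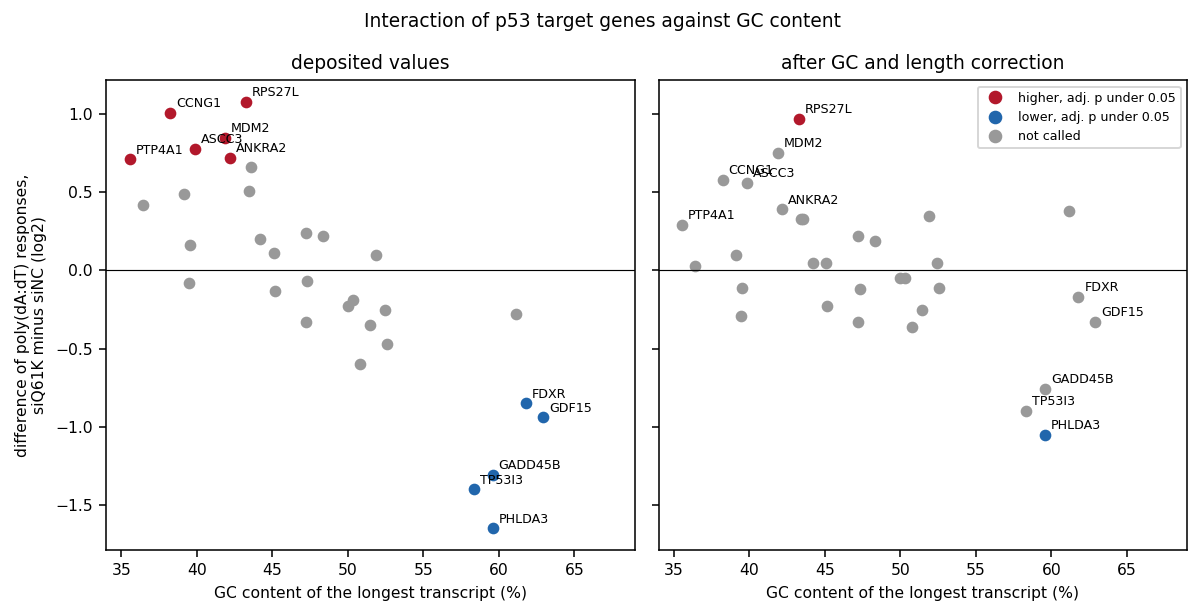
Interaction (log2 scale) of the 32 p53 target genes against the GC content of the longest transcript, as deposited and after GC and length correction, red and blue where limma's adjusted p was under 0.05. The deposited values run from 1.08 for RPS27L at 43.27% GC to -1.65 for PHLDA3 at 59.58% GC, and the Spearman correlation is -0.84 before and -0.52 after correction.

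The wider pathway was described with 3 further lists. MDM4, which inhibits p53 alongside MDM2, averaged 4.83 ± 0.849 TPM in siQ61K DMSO and 9.19 ± 0.747 TPM in siNC DMSO (SD, n = 3 each; log2 fold change -0.81, limma adjusted p = 0.00303). The checkpoint kinases CHEK2 (-0.75) and CHEK1 (-0.70) were lower as well, and the 3 calls remained after GC and length correction, at -0.67, -0.78 and -0.47. Of 16 tested p53 regulators, 2 were higher and 3 lower in the knockdown without poly(dA:dT), 3 and 1 in that with poly(dA:dT), 1 and 2 for poly(dA:dT) under siQ61K, 0 and 0 under siNC (1 at an unadjusted p under 0.05), and 1 and 2 for the interaction. These are 31.2%, 25%, 18.8%, 0% and 18.8% of the list, against 31.5%, 21.4%, 25.2%, 0.122% and 18.1% of all genes, so the regulators' shares as deposited were near those of all genes or below them. After correction the counts in the same order were 3 and 4, 3 and 3, 1 and 0, 0 and 0 (2 at an unadjusted p under 0.05), and 0 and 0 (6 at an unadjusted p under 0.05). For the knockdown these are 43.8% without and 37.5% with poly(dA:dT), against 27.6% and 27.1% of all genes. The acetyltransferase KAT5 held the largest called change of the list in the interaction, and it was not called there after correction (-1.03, corrected -0.49).

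CDKN1A, which encodes the cyclin-dependent kinase inhibitor p21, had 297.2, 273.1 and 295.9 TPM in siQ61K DMSO and 222.1, 239.5 and 244.9 TPM in siNC DMSO. Its log2 fold change of 0.29 (adjusted p = 0.0346) became -0.03 with GC and length correction (adjusted p = 0.777), and the call also ended with median-of-ratios scaling. With poly(dA:dT) it was lower in siQ61K (228.4, 197.3 and 182.2 TPM) than in siNC (261.8, 256.2 and 243.5 TPM; -0.33, adjusted p = 0.0282), and this call too ended with the correction (adjusted p = 0.106) and with median-of-ratios scaling. BBC3 (PUMA), a BH3-only activator of apoptosis, averaged 73.0 ± 6.75 TPM in siQ61K DMSO and 30.6 ± 3.47 TPM in siNC DMSO (1.23, adjusted p = 0.00067; corrected 0.64, adjusted p = 0.000785). With poly(dA:dT) it averaged 39.4 ± 11.2 TPM in siQ61K and 42.2 ± 9.98 TPM in siNC and was not called (-0.11, adjusted p = 0.733). BAX, the pore-forming death effector, averaged 545.8 ± 97.25 TPM in siQ61K DMSO and 343.2 ± 57.26 TPM in siNC DMSO. These groups did not overlap, but the call was missed (0.66, adjusted p = 0.0559). In the knockdown with poly(dA:dT) its values overlapped and it was called lower (-0.76, adjusted p = 0.0439). That call remained after correction (-0.58, adjusted p = 0.0468), and median-of-ratios scaling ended it. It was kept under 10 of the 25 alternatives, and in 4 of the 12 fits that left out a single library.

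Of 60 other p53-induced genes, 11 were higher and 7 lower in the knockdown without poly(dA:dT), 12 and 19 with it, 5 and 21 for poly(dA:dT) under siQ61K, 0 and 0 under siNC (4 at an unadjusted p under 0.05), and 4 and 12 for the interaction. These are 30%, 51.7%, 43.3%, 0% and 26.7% of the list, beside the shares of all genes given above. After correction the counts in the same order were 9 and 10, 17 and 14, 7 and 4, 0 and 0 (3 at an unadjusted p under 0.05), and 2 and 0. Several of those that moved are better known outside the p53 pathway. TGFA, a ligand of the EGF receptor, averaged 24.0 ± 4.16 TPM in siQ61K DMSO and 78.5 ± 10.9 TPM in siNC DMSO (-1.67, corrected -1.61), and EPHA2, a receptor tyrosine kinase, was lower in the knockdown with poly(dA:dT) (-1.43, corrected -1.15). TRIM22, which interferon also induces, averaged 50.9 ± 2.48 TPM in siQ61K poly(dA:dT) and 16.4 ± 1.95 TPM in siNC poly(dA:dT) (1.58, corrected 1.53).

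The cell cycle genes that p53 lowers through p21 and the DREAM repressor gave the most uniform counts of the 3 lists. Of 24 tested, 22 were lower and 0 higher in siQ61K than in siNC, both without and with poly(dA:dT), with medians of -1.10 and -0.93, and 23 were lower in each comparison after correction. Of all genes, 14.8% without and 12.6% with poly(dA:dT) were called lower, and 14.5% and 13.3% after correction. CCNB1, the mitotic cyclin, averaged 115.7 ± 3.95 TPM in siQ61K DMSO and 321.8 ± 27.7 TPM in siNC DMSO (-1.47, corrected -1.26, adjusted p = 4.73e-06 as deposited). PLK1, a mitotic kinase, averaged 53.6 ± 10.4 TPM in siQ61K poly(dA:dT) and 164.7 ± 6.85 TPM in siNC poly(dA:dT) (-1.62, corrected -1.39, adjusted p = 5.22e-06 as deposited). These genes also depend on proliferation by routes other than p53, and the part of p53 in their decrease was not tested. For poly(dA:dT), 2 of the 24 were higher and 4 lower under siQ61K, 0 and 0 under siNC (3 at an unadjusted p under 0.05), and 2 and 4 in the interaction. The 25% called under siQ61K and the 25% called in the interaction stand beside 25.2% and 18.1% of all genes. After correction the counts were 1 and 1, 0 and 0 (2 at an unadjusted p under 0.05), and 0 and 0 (5 at an unadjusted p under 0.05).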

How the data were processed

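Per the labels' protocols, total RNA of HT1080 cells was prepared with a NEBNext Ultra kit for an Illumina NovaSeq; strand is not stated. The authors deposited 1 table of TPM per gene symbol. Salmon 0.8.0 and hg19 appear in the submitters' processing notes; the annotation is not given in the sources used here. Columns were matched to sample titles by inference from short names: NC as the control siRNA, SI as the other siRNA and PD as the added agent.

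Rows sharing a symbol (984 rows, 58 symbols) were left out. Values were analysed as log2(TPM + 1) for 14722 genes that reached 1 TPM in 3 or more of 12 libraries. Depth is unknown, so no counting interval is given. A single limma 3.58.1 model (R 4.3.3) held all 4 groups, with the trend option. Benjamini-Hochberg adjustment ran over all genes, and 0.05 was the threshold. Exact two-sided permutation tests of 3 libraries against 3 cannot go below p = 0.1, and are not printed. The model was also run on simulated data with independent noise and no GC trend, so that run cannot speak to the GC trend described above. GC content and length came from the longest GENCODE transcript (14299 of 14722 genes, 97.13%), which need not be the one expressed, and each library was corrected by lowess (span 0.3). Promoters came from RefSeq (GRCh38.p14). Words of 31 bases shared with other annotated genes were counted per longest transcript.

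The 34 genes, their roles and the 3 further lists were chosen with earlier results of these data known, so no p-value is given for a list. Genes named are the 34 listed, MDM4, CDKN1A, BAX and BBC3, and examples from among the 4 largest called changes per comparison in each further list; 1 item is not reported here. Alternatives were pseudocounts of 0.1 and 5, no filter, a 5 TPM minimum of the mean, quantile normalization, median-of-ratios scaling, no or a robust variance trend, only the groups compared, a replicate block, the GC and length correction with and without that block, leaving out each library, and leaving out the pair set aside.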

Additional observations from a re-analysis of the deposited data

Results flagged for a closer look

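The poly(dA:dT) response differed between siQ61K and siNC, by the interaction term of limma, for 11 of the 32 p53 target genes tested, beside 18.1% of all genes. It was more positive under siQ61K for RPS27L (1.08, adjusted p = 0.00771), CCNG1 (1.01, adjusted p = 0.0365), MDM2 (0.85, adjusted p = 0.0179), ASCC3 (0.78, adjusted p = 0.0382), ANKRA2 (0.72, adjusted p = 0.0393) and PTP4A1 (0.71, adjusted p = 0.0246). It was more negative for PHLDA3 (-1.65, adjusted p = 0.00853), TP53I3 (-1.40, adjusted p = 0.02), GADD45B (-1.31, adjusted p = 0.00872), GDF15 (-0.94, adjusted p = 0.0137) and FDXR (-0.85, adjusted p = 0.0115). After GC and length correction, RPS27L and PHLDA3 passed the threshold, beside 2.08% of all genes, and with a replicate block added to the correction PHLDA3 alone did.

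The same term was negative for 3 other genes of the pathway that are named in the text, BAX (-1.42, adjusted p = 0.0188), BBC3 (-1.34, adjusted p = 0.0119) and CDKN1A (-0.62, adjusted p = 0.0135). None of these 3 passed after the correction, where their adjusted p-values were 0.0901, 0.0936 and 0.498.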

How the results depend on the processing

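The 53 calls of p53 target genes were refitted under 25 alternatives; of 1314 refits, 1075 kept the call, 239 lost it and 0 reversed direction. Leaving out single libraries gave 13 to 15 called genes for the knockdown without poly(dA:dT), 8 to 15 with it, 7 to 17 for poly(dA:dT) under siQ61K, 0 under siNC and 6 to 13 for the interaction. Without the pair of libraries set aside, the counts were 8 for the knockdown with poly(dA:dT), 0 for poly(dA:dT) under siQ61K and 5 for the interaction. For poly(dA:dT) under siQ61K the count was 8 with no filter, 8 with only the groups compared, 7 with GC and length correction and 8 with that correction and a replicate block. For the interaction it was 4 with no filter, 2 with the correction and 1 with correction and block, which ended the call of RPS27L. CDKN1A in the knockdown without poly(dA:dT) changed sign to -0.03 with the correction, with and without the block. The cause of these changes was not tested. Shares of all genes called are given for the GC and length correction and not for the other alternatives. Counts under those others thus cannot be read as particular to the p53 targets. Scaling moved the share of called genes that were higher from 40.78% to 51.31% for the knockdown with poly(dA:dT) and from 33.17% to 47.46% for the interaction (median-of-ratios), where 8 and 6 p53 targets were higher and 5 and 5 lower. Same-numbered libraries did not deviate together by more than 0.1 in every pair of any comparison (correlations of -0.17 to 0.10), so the numbers were not taken as pairs, and the labels do not say what they mark. In the knockdown with poly(dA:dT) and in poly(dA:dT) under siQ61K, all 3 libraries correlated best with their own number, a hint of pairing from the data. The replicate block gave 14, 13, 13, 0 and 10 called genes in the order of the report, and 50 of the 53 calls were kept. PTP4A1 and XPC (poly(dA:dT) under siQ61K) and ASCC3 (interaction) were lost. Depth is unknown, and 3 libraries per group limit the precision; for PTP4A1, TIGAR and XPC, 88.4%, 49.1% and 32% of 31-base words occur in other annotated genes.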
